A study of Mus musculus with 8 samples.

Results

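The genes described here are 10 enzymes of methionine, cysteine and glycine metabolism in mouse liver, chosen by name: Mat1a, Gnmt, Ahcy and Bhmt of the methionine cycle, Cbs and Cth of transsulfuration, Gldc and Amt of glycine cleavage, Shmt1 of serine and glycine interconversion, and Sardh of sarcosine breakdown. Symbols were matched to the Ensembl identifiers of 2 deposited tables of genotype comparisons, and 9 of the 10 genes had values in both, among 23634 genes of the larger table and 21201 of the smaller. Gnmt was not analysed here. All 9 passed the filter on low means in each table. The series compared mice labelled Cpeb4 KO with wild-type mice. Its 8 libraries form 4 groups of 2, namely Cpeb4 KO total liver, Cpeb4 KO purified endoplasmic reticulum (ER), wild-type total liver and wild-type purified ER. The ER came from livers of mice fasted overnight, the labels give no feeding state for the total liver RNA, and no agent was given to any group. The labels give neither the allele, the tissue of the deletion, the strain, the age nor the sex, and do not say whether the 2 libraries of a group came from different animals, so p-values measure no more than the variation among these libraries, possibly technical.

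Methionine is activated to S-adenosylmethionine, the methyl donor of the cell, by the liver form of methionine adenosyltransferase, Mat1a. Methyl transfer, of which glycine N-methyltransferase (Gnmt) is a large consumer in liver, leaves S-adenosylhomocysteine, which Ahcy hydrolyses to homocysteine. Homocysteine is remethylated with betaine by Bhmt or with methyl folate by methionine synthase, or passed by Cbs and then Cth into cysteine, a precursor of glutathione and taurine. Glycine is broken down in mitochondria by the glycine cleavage system, of which Gldc is the decarboxylase and Amt the aminomethyltransferase, and the 1-carbon units enter the folate pool that Shmt1 also feeds. Cpeb4 encodes an RNA-binding protein of the CPEB family, whose members bind U-rich cytoplasmic polyadenylation elements in 3′ UTRs and regulate the poly(A) tail and translation of the bound mRNA.

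For each gene the authors deposited a mean of normalised counts over the libraries, a log2 fold change, its standard error (SE) and a Wald test, and gave no value per library, so members are described by their means and fold changes. Neither table names its RNA preparation, and neither is assigned to total liver or ER here. Each table was taken to rest on 4 libraries, a number set beforehand and not read from the data. The 4 most frequent means were taken as those of genes with 1 read. In each table, 2 of them belonged to genes with fold changes above 0 and 2 to genes below 0. On the assumption of 4 libraries, depths within a table spanned 1.75-fold (larger) and 1.96-fold (smaller). The gene means summed to 37351703 normalised counts in the larger table, with 36848665 in the smaller. Per the authors' deposited tables, Cpeb4 had log2 fold changes of -1.16 ± 0.11 (larger) and -1.10 ± 0.13 (smaller), with the smallest p of each. Since the headers write no direction, its sign was taken to mean lower in the knockout; every direction below rests on that reading. The fold changes are moderated estimates, which lie nearer to 0 than plain ratios. Of 10 hepatocyte markers, 9 had means between 25452 and 1307220 in the authors' deposited tables, and the tenth, Trf, had a mean of 0.974 in the larger table and was not analysed in the smaller.

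Among the 9 enzymes, Cth (cystathionine gamma-lyase, which releases cysteine) was higher in the knockout in the smaller table, whereas the larger held no member past the test. Fold changes above 0 were seen for 8 of 9 members, the same 8 in each of the authors' deposited tables, and Shmt1 alone lay below 0. Of all 11604 genes tested in both tables, 34.3% lay above 0 in both. Both of the authors' deposited tables gave a median log2 fold change of 0.13 for the members, against -0.00083 and 0.00085 for all tested genes. An adjusted p (Wald test, Benjamini-Hochberg over all tested genes) under 0.05 was reached by 0 of 9 members in the larger table, where 0.296% of all tested genes passed (0.0917% higher and 0.205% lower), and by 1 of 9 in the smaller, where 0.266% passed (0.163% higher and 0.103% lower). At an unadjusted p under 0.05, 4 of 9 members passed in the larger table, against 3.62% of all tested genes, and 3 of 9 in the smaller, against 4.11%. The members were chosen with earlier results of these data known, so these shares describe them and are no test of the group.

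**Figure D1:**
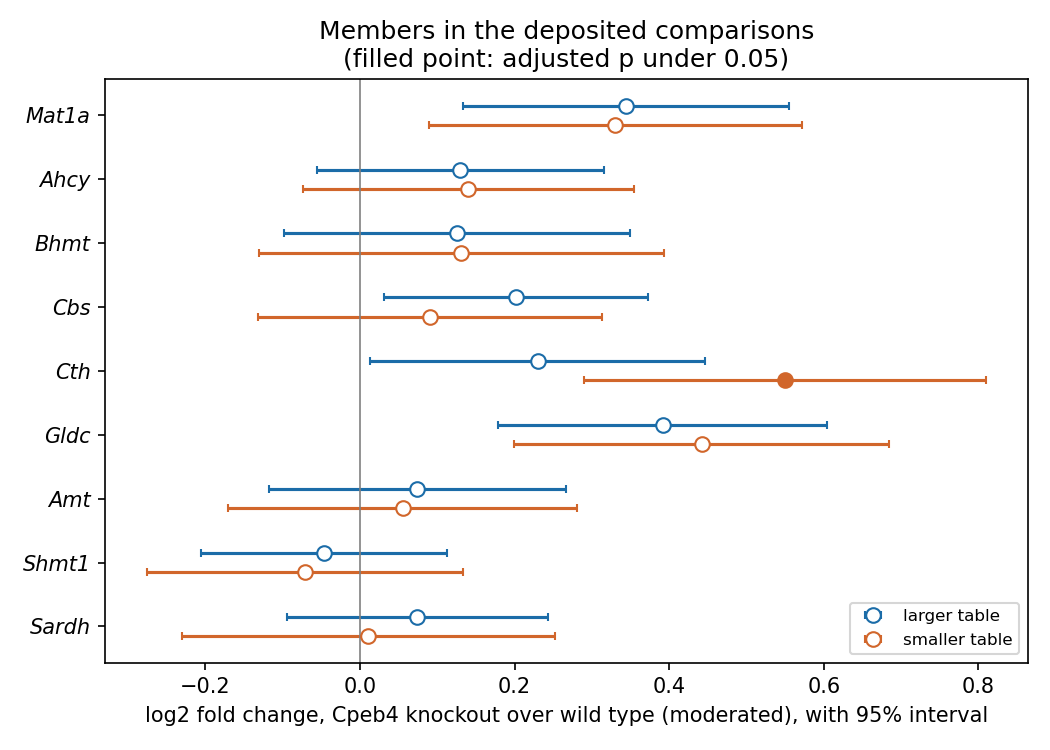
Log2 fold change of the 9 members in the knockout over the wild type (x axis, moderated estimates of the deposited tables) with 95% intervals from the deposited standard errors. The larger table is blue and above, the smaller table orange and below; the filled point of Cth in the smaller table, at 0.55, is the only value with an adjusted p under 0.05.

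Mat1a (ENSMUSG00000037798; GRCm38 chromosome 14, 41105035 to 41124412, plus strand; like all members a protein-coding gene of GENCODE M21) had a log2 fold change of 0.34 ± 0.11 (SE) in the authors' deposited larger table, with a 95% interval of 0.13 to 0.56 and an adjusted p of 0.233. In the authors' deposited smaller table it had 0.33 ± 0.12, with an interval of 0.09 to 0.57 and an adjusted p of 0.571. Both intervals lie above 0, yet neither value passed once all genes were considered. At its SE, Mat1a would have needed a log2 change of 0.41 (larger table) or 0.47 (smaller) to pass, computed from the lowest Wald statistic called there.

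The next steps of the methionine cycle had smaller values. Ahcy (ENSMUSG00000027597; chromosome 2, 155059310 to 155074497, minus strand) had 0.13 ± 0.09 in the authors' deposited larger table, with 0.14 ± 0.11 in the smaller. Bhmt (ENSMUSG00000074768; chromosome 13, 93616675 to 93637961, minus strand) had 0.13 ± 0.11 and 0.13 ± 0.13 in the authors' deposited larger and smaller tables. The 95% intervals of both genes include 0 in each table, with upper ends at 0.32 and 0.35 for Ahcy and 0.35 and 0.39 for Bhmt, so moderated changes above these bounds lie outside them.

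Transsulfuration held the 1 called member. Cth (ENSMUSG00000028179; chromosome 3, 157894248 to 157925077, minus strand) rose by 0.55 ± 0.13 on the log2 scale in the authors' deposited smaller table, a moderated fold of 1.46 (interval 0.29 to 0.81, adjusted p = 0.0191), and ranked 19th of 11661 tested genes by p. In the authors' deposited larger table it had 0.23 ± 0.11 (interval 0.01 to 0.45, p = 0.0374, adjusted p = 1.00) and ranked 421st of 14180. The difference between the tables, larger minus smaller, was -0.32 ± 0.17 with an interval of -0.66 to 0.02, and did not pass a z test on the deposited estimates (adjusted p = 1.00 over 11604 genes, and 0.275 with z divided by its SD over genes). The tables are thus not shown to differ for Cth, although its value passed in 1 of them. Cbs (ENSMUSG00000024039; chromosome 17, 31608894 to 31637238, minus strand), which makes the cystathionine that Cth cleaves, had 0.20 ± 0.09 in the authors' deposited larger table (p = 0.0207, adjusted p = 1.00) and 0.09 ± 0.11 in the smaller (p = 0.422).

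In the glycine cleavage system no subunit passed, and the decarboxylase had the largest values; the subunits were not tested against each other. Gldc (ENSMUSG00000024827; chromosome 19, 30098447 to 30175429, minus strand) had 0.39 ± 0.11 in the authors' deposited larger table, with an interval of 0.18 to 0.60, and ranked 53rd by p. In the authors' deposited smaller table it had 0.44 ± 0.12, with an interval of 0.20 to 0.68, and ranked 43rd. Its adjusted p values were 0.0839 and 0.0965 in the authors' deposited tables, so it did not pass, and it would have needed log2 changes of 0.41 and 0.47. Amt (ENSMUSG00000032607; chromosome 9, 108296853 to 108302302, plus strand) had 0.07 ± 0.10 and 0.06 ± 0.12 in the authors' deposited larger and smaller tables. Of the other subunits, Gcsh, the lipoyl carrier protein, had -0.09 ± 0.09 and -0.09 ± 0.11 in the authors' deposited tables, and Dld, the dihydrolipoyl dehydrogenase, had 0.05 ± 0.08 and 0.15 ± 0.11.

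Shmt1 (ENSMUSG00000020534; chromosome 11, 60788104 to 60811718, minus strand), the cytosolic serine hydroxymethyltransferase, had -0.05 ± 0.08 in the authors' deposited larger table, with an interval of -0.21 to 0.11. The authors' deposited smaller table gave -0.07 ± 0.10, with an interval of -0.28 to 0.13. Sardh (ENSMUSG00000009614; chromosome 2, 27188393 to 27248337, minus strand), the mitochondrial sarcosine dehydrogenase that returns the product of Gnmt to glycine, had 0.07 ± 0.09 and 0.01 ± 0.12 in the authors' deposited tables. No member differed between the tables in the z test, in which 2 of 11604 genes passed (0.0172%); at an unadjusted p under 0.05 again 0 of 9 members did, against 0.138% of genes. The z values had an SD of 0.535 over all genes, below the value of 1 expected of independent, unmoderated estimates with no difference. Moderated estimates can lower this SD too, and their part in it was not tested. Whether the tables share animals is not stated in the labels.

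No close relative of a member passed in either table. Mat2a, another methionine adenosyltransferase, had -0.13 ± 0.09 and -0.15 ± 0.11 in the authors' deposited larger and smaller tables. Bhmt2, which remethylates homocysteine with S-methylmethionine, had 0.18 ± 0.11 and 0.09 ± 0.12 there. The Ahcy-like genes Ahcyl1 (0.09 and 0.16) and Ahcyl2 (-0.11 and -0.03), the mitochondrial Shmt2 (-0.06 and -0.10) and the sarcosine-forming Dmgdh (0.19 and 0.17) lay on both sides of 0 in the authors' deposited tables.

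Since Cpeb4 belongs to a family that binds U-rich elements, the 3′ UTRs of the members were searched on the transcript's sense strand for TTTTAT or TTTTAAT, the DNA spelling of cytoplasmic polyadenylation elements, in the last 250 bases of 1 annotated transcript a gene (GENCODE M21, GRCm38). A match is a description of the letters and no evidence of binding. The motif was present in 4 of 9 members, Cbs, Cth, Gldc and Shmt1, against 3619 of 11693 tested protein-coding genes. The 4 include the 2 members with the largest fold changes in the smaller table, Cth and Gldc, and also Shmt1, the member below 0. Mat1a, with the next largest there, has none. In the authors' deposited larger table Mat1a (0.34) came after Gldc (0.39) and ahead of Cth (0.23). A relation between motif and fold change was not tested. The sites are shown for these 4 genes, 5′ to 3′, with the motif in capitals; for Gldc the 2 sites nearest the end are given, and for Shmt1 the nearest.
Cth: ttagtattgatgTTTTATgaagttaaatta
Gldc, site starting 46 bases from the end: gcggacttttttTTTTATctgcttttatta
Gldc, site starting 36 bases from the end: ttttttatctgcTTTTATtagtgtcctaat
Shmt1: aatacaaccagtTTTTATattttaaaaata
Cbs: taacatttggttTTTTAATgtataaaatcc
In Gldc these 2 motifs, whose printed windows overlap, start 25 and 15 bases before the start of the poly(A) signal (AATAAA or ATTAAA in the last 50 bases), and another starts 109 bases before it. In Shmt1 the motif shown starts 28 bases before that signal and in Cth 193 bases before it. For Cbs no such signal was found in the last 50 bases of its annotated 3′ UTR. Over the whole 3′ UTR, 5 of 9 members held the motif, Ahcy being the added gene, against 60.3% of genes.

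By level per kilobase, 3 members were among the 100 highest tested protein-coding genes of each table. Per kilobase of annotated exon, Bhmt had 128963 mean normalised counts in the larger table, 14th of 11872 tested protein-coding genes, with 251860 in the smaller, 7th of 10478. Mat1a had 120737 and 122918 per kilobase (17th and 23rd) and Ahcy 75748 and 79067 (35th and 34th). Cth followed at 13111 and 20912 per kilobase, and Cbs at 3398 and 4117. Shmt1, Sardh, Gldc and Amt lay between 1399 and 3333 per kilobase in both tables. With the longest transcript as length, Cth had 20161 and 32157 per kilobase and Gldc 2983 and 2867, and the lowest and highest of these last 4 genes were Sardh at 1680 and Shmt1 at 4528, both in the smaller table. The spread over libraries is not given, so neighbours in this order cannot be told apart by a test. By mean count, not per length, Bhmt ranked second in the authors' deposited larger table, at 742568, and was highest in the smaller, at 1450208. The 9 members together held 3.94% of the summed means of the larger table and 6.03% of the smaller.

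**Figure D2:**
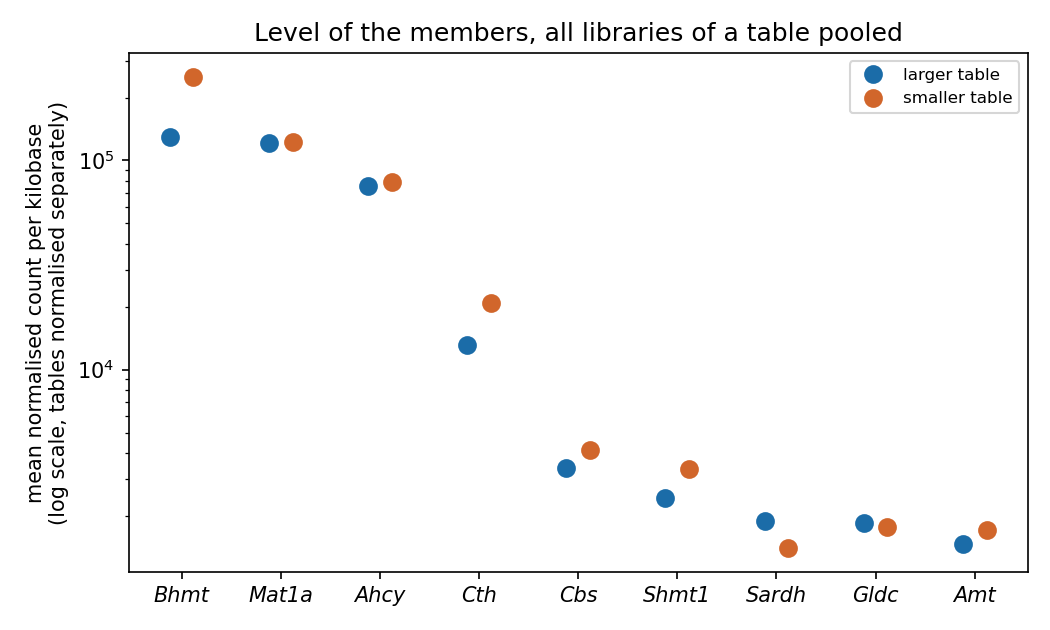
Mean normalised count per kilobase of annotated exon (y axis, log scale) of each member (x axis) over all libraries of a table, knockout and wild type together, in the larger table (blue) and the smaller table (orange). The lowest value of Bhmt, Mat1a and Ahcy is 75748, and the highest of the other members is 20912.

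The values of Ahcy and Bhmt are uncertain, because other annotated genes share stretches of their sequence, and reads from those stretches could be counted for either gene. Of the 31-base words of Ahcy, 71.4% also occur in another annotated gene, mainly Gm4737 (68.7%) and the processed pseudogene Gm9826 (35.3%). Of those of Bhmt, 30.3% do, mainly in Gm5096 (27.1%) and Bhmt-ps1 (15.6%). For the other 7 members the share was at most 6.08%. These copies were counted at high levels: Gm5096 had a mean of 632126 in the authors' deposited larger table, with 544077 in the smaller, and Gm4737 had 188216 and 153897. The processed pseudogenes differed more between the tables. Gm5638, which shares 11.1% of the words of Ahcy, had a mean of 11443 in the authors' deposited larger table against 7.62 in the smaller, Gm9826 had 83471 against 10499, and Bhmt-ps1 had 329282 against 132926. Bhmt itself was 0.512 times as high in the larger table as in the smaller, and Bhmt summed with its copies 0.801 times; the median gene was 1.19 times as high. The tables were normalised separately, and the sources used here do not say how reads mapping to several places were counted, so a level set across the tables for Ahcy or Bhmt depends on it. In the authors' deposited larger table the log2 fold changes of the 5 copies lay between 0.12 (Gm9826) and 0.13, as did those of Ahcy and Bhmt at 0.13. In the authors' deposited smaller table Gm4737 had 0.15 ± 0.11 and Gm9826 0.13 ± 0.13, beside 0.14 ± 0.11 for Ahcy. The copies of Bhmt were higher there, at 0.26 ± 0.13 for Gm5096 and 0.25 ± 0.12 for Bhmt-ps1 in the authors' deposited smaller table, beside 0.13 ± 0.13 for Bhmt, and the difference was not tested. No copy tested passed, and Gm5638 was not tested in the smaller table.

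**Figure D3:**
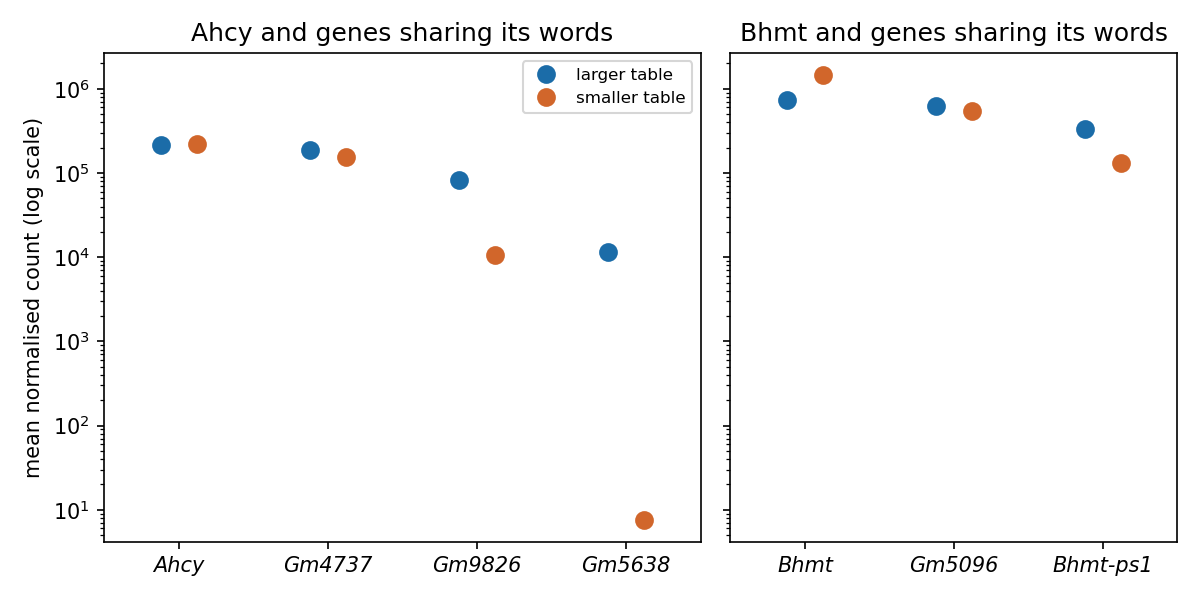
Mean normalised count (y axis, log scale, shared by both panels) of Ahcy and Bhmt and of genes that share their 31-base words (x axis), in the larger table (blue) and the smaller table (orange). Gm5638 has 11443 in the larger table against 7.62 in the smaller, whereas Bhmt is lower in the larger table.

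Other overlaps were small. Sardh shares 188 exon bases with its antisense gene Sardhos, Shmt1 184 with Smcr8 on the other strand, and Bhmt 187 with the antisense gene Gm15622, and the sources used here do not say whether strand was used in counting. Cth shares 0.0363% of its words with another gene and Mat1a none.

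The wider pathway was described with 6 lists, which hold 95 genes besides the members, with 88 tested in the larger table and 84 tested in the smaller. Of these, 0 rose and 1 fell in the larger table, whereas 1 rose and 1 fell in the smaller. The shares over all tested genes were 0.0917% higher and 0.205% lower (larger), and 0.163% and 0.103% (smaller). At an unadjusted p under 0.05 (Wald test), 9 of 88 list genes passed in the larger table and 9 of 84 in the smaller. All tested genes did so at 3.62% and 4.11%. The median log2 fold changes of the list genes other than members were 0.02 and -0.01 in the authors' deposited larger and smaller tables, against 0.13 for the 9 members in each. The gene that fell in both was Inmt, indolethylamine N-methyltransferase, which uses S-adenosylmethionine, at -0.50 ± 0.10 in the authors' deposited larger table (adjusted p = 0.000981) and -0.63 ± 0.11 in the smaller (adjusted p = 4.67e-05). The gene that rose in the smaller was Got1, the cytosolic aspartate aminotransferase, which also acts on cysteine sulfinate, at 0.54 ± 0.13 in the authors' deposited smaller table (adjusted p = 0.0232) and 0.25 ± 0.11 in the larger (adjusted p = 1.00).

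The counts per list that follow include the members. Among genes of the methionine cycle and methyl transfer, 12 of 22 tested lay above 0 in the larger table, with 11 of 22 in the smaller, and 21 did not pass in each. Gamt, which methylates guanidinoacetate to creatine, had -0.23 ± 0.09 and -0.35 ± 0.11 in the authors' deposited larger and smaller tables. The nicotinamide methyltransferase Nnmt had 0.30 ± 0.11 and 0.29 ± 0.13 in the authors' deposited tables. These methyltransferases thus lay on both sides of 0.

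Of transsulfuration, cysteine oxidation and sulfide oxidation, 9 of 11 tested genes lay above 0 in the larger table, with none past the test (3 at an unadjusted p under 0.05, Wald test), and 8 of 11 in the smaller, where Cth and Got1 rose and 9 did not pass. Cdo1, the cysteine dioxygenase on the way to taurine, had 0.10 ± 0.10 and 0.16 ± 0.12 in the authors' deposited tables. The sulfide-handling enzymes Mpst (-0.10 and -0.20) and Sqor (-0.16 and -0.19) lay below 0 in the authors' deposited tables without passing. Ethe1 (0.14 and 0.07), Suox (0.10 and 0.02) and Tstd1 (0.02 and 0.03) of the same list lay above 0 in the authors' deposited tables, and Tst had 0.03 and -0.06, none of them past the test.

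No gene of glycine and serine metabolism or of the folate 1-carbon enzymes passed in either table. Of the former list 15 of 25 tested genes lay above 0 in the larger table, with 14 of 24 in the smaller (2 and 3 at an unadjusted p under 0.05, Wald test), and Gldc had the highest value of it in both. Glyat, which conjugates acyl groups to glycine, had -0.22 ± 0.11 and -0.25 ± 0.12 in the authors' deposited tables, and the serine dehydratase-like Sdsl 0.19 ± 0.11 and 0.29 ± 0.13. Of the folate list 11 of 19 lay above 0 in the larger table, with 8 of 18 in the smaller (2 and 1 at an unadjusted p under 0.05). Its highest value was that of the mitochondrial formate-producing enzyme Mthfd1l, at 0.26 ± 0.12 and 0.46 ± 0.14 in the authors' deposited tables (adjusted p = 1.00 and 0.160). Fpgs, which adds glutamates to folate, had 0.20 ± 0.09 and 0.12 ± 0.11, and the folate transporter Slc46a1 -0.15 ± 0.11 and -0.26 ± 0.14, in the authors' deposited tables.

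**Figure D4:**
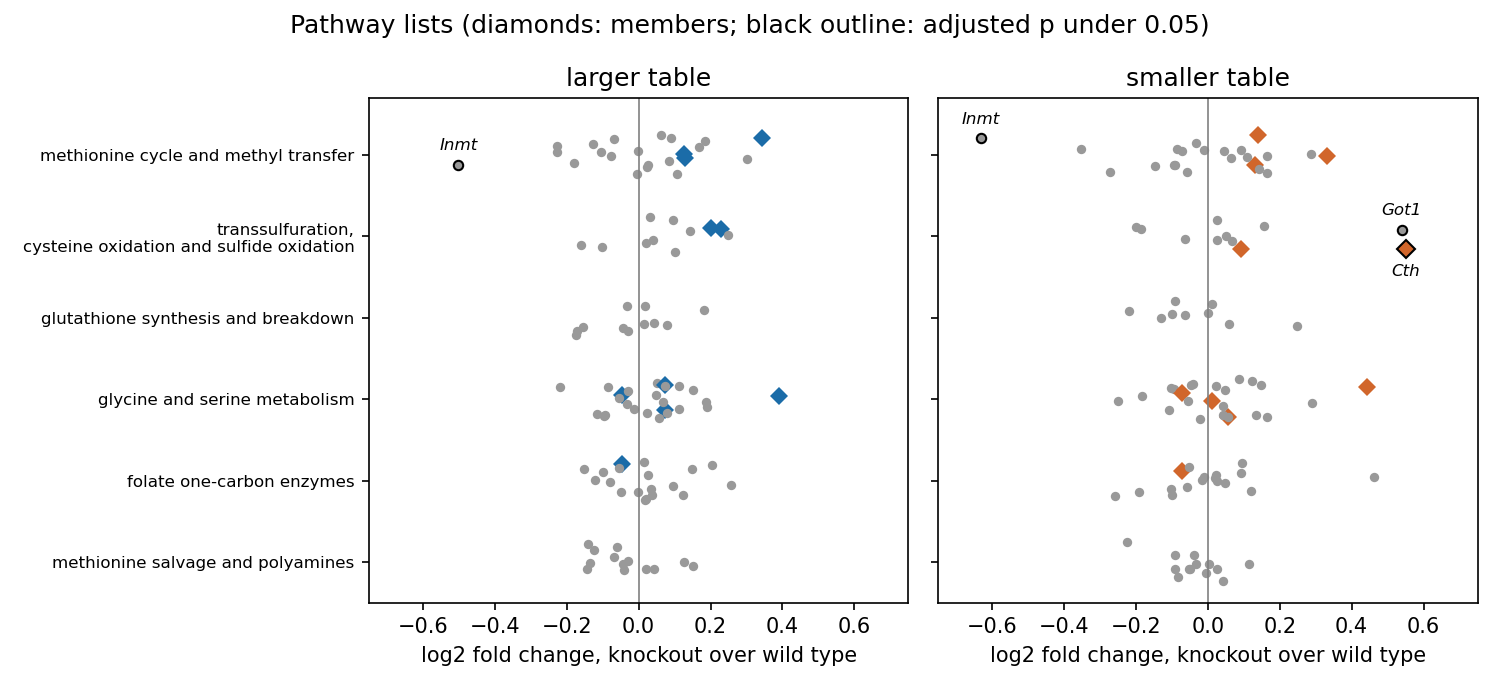
Log2 fold change in the knockout over the wild type (x axis) of every tested gene of 6 pathway lists (rows), in the larger table on the left and the smaller on the right; diamonds are members and black outlines mark an adjusted p under 0.05. Inmt is outlined in both tables, at -0.50 and -0.63, and Cth and Got1 in the smaller, at 0.55 and 0.54.

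Markers of hepatocyte zones were set beside these values, since enzymes of amino acid breakdown differ between zones of the liver lobule. Of 10 markers of hepatocytes near the portal vein, 8 lay above 0 in the authors' deposited larger table, with 9 in the smaller. Their medians were 0.17 and 0.21 in the authors' deposited tables, and none passed (4 in each at an unadjusted p under 0.05, Wald test). Of markers of hepatocytes near the central vein, 4 of 9 tested lay above 0 in the larger table, with 2 of 8 in the smaller and medians of -0.04 and -0.08 in the authors' deposited tables, and Cyp2a5 fell in the larger table. Of the general hepatocyte markers, 5 of 9 tested lay above 0 in each table, and 1 rose in both, the tyrosine aminotransferase Tat, at 0.70 ± 0.11 and 0.72 ± 0.12 in the authors' deposited tables. Summed means were 2.26% of the larger table and 2.54% of the smaller for the portal list, and 0.647% and 0.414% for the central list. Kupffer cell markers lay below 0 in 9 of 10 and 10 of 10 cases, with summed means of 0.0208% and 0.0150%, and the 4 globin genes, the only erythroid markers tested, in 4 of 4 cases in each, with 0.0314% and 0.0383% for the erythroid list. Endothelial markers lay above 0 in 3 of 7 and 4 of 7 cases, and stellate and fibroblast markers in 1 of 7 and 3 of 6. Cholangiocyte markers did so in 1 of 3 in each table, and lymphocyte markers in 1 of 2 and 0 of 2. Of all tested genes, 49.6% (larger) and 50.3% (smaller) lay above 0. An unadjusted p under 0.05 (Wald test) was reached by 3.62% and 4.11% of them. At that level, 3 of 9 and 1 of 8 central markers passed in the larger and smaller tables. General hepatocyte markers did so in 2 of 9 and 3 of 9 cases, and Kupffer cell markers in 0 of 10 and 2 of 10. Stellate and fibroblast markers did so in 1 of 7 and 1 of 6, and no endothelial, cholangiocyte or lymphocyte marker did. All 4 globins had an unadjusted p under 0.05 in each table, with medians of -0.30 and -0.40 in the authors' deposited tables, and none passed. The globins may share reads with each other, so the 4 may not be separate observations. In bulk RNA fewer cells of a type and less RNA per cell cannot be told apart, and the part of these markers in the members' values was not tested.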

How the data were processed

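Per the submitters' processing notes, which give no roles, the tools were DESeq2 1.6.3 and STAR 2.3.0e and the build mm10. The sources used here do not give the annotation, counting tool, strand setting or multi-mapping rule. The authors deposited 2 tables with 6 numeric columns each: per the file headers, a mean signal (counts over size factors), a log2 fold change with its SE on the log2 scale, a Wald score, a p-value and its adjusted p-value. The fold changes are called moderated from the values, since genes with few reads have fold changes and SEs near 0 (Trf, -0.01 ± 0.02 in the authors' deposited larger table). Adjusted p-values are missing for 9454 and 9540 genes, and these genes were not tested. The lowest means with an adjusted p were 17.4 and 31.9. Called means an adjusted p under 0.05. Identifiers were named from a reference table of gene IDs and symbols (23484 and 21080 matched), and GENCODE M21 gave exon lengths, 3′ UTRs and shared 31-base words.

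The 95% intervals are the fold change ± 1.96 SE. The difference between the tables is a z test over 11604 genes that treats the tables as independent. Its check on simulated data used independent, unmoderated estimates and larger differences than that of Cth. That check therefore does not cover the setting of these tables. The members, lists and tests were chosen with earlier results of these data known. Genes named are all members, their paralogs and partner subunits, list genes past the test and up to 3 more per list with the largest Wald statistic, of which 1 is not reported here; the copies of Ahcy and Bhmt, Trf, Tat, Cyp2a5, Ethe1, Suox, Tst and Tstd1 were named after their values were seen. No count model was fitted, since the tables hold no counts per library. Alternatives were other mean filters, centring, Holm adjustment, genes sharing sequence left out, scaled z, other lengths, windows and motifs. Python 3.11.15, pandas 2.3.3, numpy 2.4.6, scipy 1.17.1 and matplotlib 3.10.9 were used.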

Additional observations from a re-analysis of the deposited data

How the results depend on the processing

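Of 382 adjusted p-values of single genes recomputed under the alternatives, 380 kept their direction and their side of 0.05. Most began near 1, where these alternatives could hardly bring them under 0.05, so the count says little about robustness. Of the values under 0.05 at the start, those of Inmt kept their side in both tables. The exceptions, both under the stricter Holm adjustment of the smaller table, were Cth (adjusted p = 0.380) and Got1 (0.509), and members past the threshold there then numbered 0. Over its 5 alternatives the adjusted p of Cth in the smaller table ran from 0.0158 to 0.380, and that of Gldc from 0.0749 to 1.00 (larger table) and 0.0799 to 1.00 (smaller). Under Holm adjustment, 24 genes passed in the larger table, with 13 in the smaller, against 42 and 31 with Benjamini-Hochberg adjustment. For the difference between the tables, 10 genes passed once z was divided by its SD and 1 among genes with a mean of at least 100 in both, against 2; no member passed under either. With the longest transcript as gene length, 3 members remained among the 100 highest per kilobase in the larger table, with 4 in the smaller, against 3 in each, Cth being added at rank 90. No paired analysis was possible because the tables hold no values per library. For the same reason no replicate could be left out, no count model could be fitted, and no count of libraries showing a direction or interval of counting error can be given. The SEs of the members, 0.08 to 0.11 (larger table) and 0.10 to 0.13 (smaller), set what could pass.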

Other observations

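Enzymes on either side of the described pathway showed no called gene. Of glutathione synthesis and breakdown, 5 of 11 tested genes lay above 0 in the larger table and 3 of 9 in the smaller, with 1 in each at an unadjusted p under 0.05 (Wald test). That gene was Gsr, the glutathione reductase, at 0.18 ± 0.09 and 0.25 ± 0.11 in the authors' deposited larger and smaller tables. Gclc, the catalytic subunit that joins cysteine to glutamate, had -0.18 ± 0.10 and -0.06 ± 0.12 in the authors' deposited tables, and the peptidase Anpep -0.17 ± 0.10 and -0.22 ± 0.12. Of methionine salvage and polyamine genes, 4 of 13 lay above 0 in each table and 0 had an unadjusted p under 0.05. The spermidine synthase Srm had -0.14 ± 0.10 and -0.22 ± 0.12, the salvage dioxygenase Adi1 -0.13 ± 0.08 and -0.08 ± 0.11, and the polyamine acetyltransferase Sat1 0.13 ± 0.09 and 0.12 ± 0.11 in the authors' deposited tables.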
